A study of Neurospora crassa with 18 samples.

Results

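The mRNA levels of the catalases and superoxide dismutases of *Neurospora crassa*, a filamentous fungus, were examined in 3 strains and 3 culture conditions. The genes were chosen by locus tag, and they were *cat-1* (NCU08791), *cat-2* (NCU05770), *cat-3* (NCU00355), *sod-1* (NCU02133) and *sod-2* (NCU01213). These are 5 of the 9730 genes with values, and all 5 symbols in the RefSeq gene table matched their locus tags. Each had 1 annotated transcript and overlapped 0 other annotated genes. Levels are RPKM (read numbers scaled to transcript length and to the size of the library) from mRNA-seq of mycelia grown in constant light.

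The 18 libraries form 7 groups. Treatment with 3-AT (5 mM, 8 h) was in medium with 2% glucose and covered the transgene strain *cpc-1Δ*, *cpc-1*(WT) along with *cpc-1Δ* and WT (FGSC4200), with 3 libraries for each. In 0.1% glucose medium, which also held 0.17% arginine, *cpc-1Δ* and WT had 2 libraries each, so that low glucose and added arginine cannot be told apart. Untreated cultures with 2% glucose gave 2 libraries of *cpc-1Δ* and 3 of WT. *cpc-1Δ* comes from the *Neurospora* knockout library and lacks *cpc-1*, which encodes the transcription factor of cross-pathway control of amino acid synthesis. The transgene strain has the same deletion and a tagged copy of wild-type *cpc-1*, driven by the *ccg-1* promoter and placed at *csr-1*, and it was sampled only with 3-AT. Its 3 libraries carry sample numbers set apart from all others, and only they had genes without a number (50, 53 and 61). In every comparison with this strain, strain and set of libraries cannot be told apart. Whether the libraries of a group came from separate cultures is not stated, so the *P* values measure the spread between these libraries, which may be technical.

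Superoxide dismutases turn superoxide into hydrogen peroxide and oxygen, and catalases split hydrogen peroxide into water and oxygen. In *Neurospora*, CAT-3 is the main catalase of growing mycelium, CAT-1 is abundant in conidia (asexual spores), and CAT-2 is a catalase-peroxidase. SOD-1 is the copper-zinc superoxide dismutase and SOD-2 the mitochondrial manganese enzyme. 3-AT inhibits a step of histidine synthesis and is also a known inhibitor of catalase. Enzyme activity was not measured, and all values here are of mRNA.

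Summed over all transcripts, RPKM per library ranged between 258726 and 546387, and these sums differed between groups much more than within them. Many fold changes are therefore set beside the median of all genes averaging at least 10 RPKM. Many are also given after median-ratio scaling, which divides each library by its median ratio to a mean library. Not every fold change has a scaled value beside it, and one printed without it may still depend on the scale. Depth is unknown, since read counts were not analysed here. A relative index of depth from the smallest steps between values was 193 to 687 in the groups of 2 and 892 to 1583 in the groups of 3. A value of 0 was not read as absence, because 749 genes had an isolated 0, meaning a 0 in 1 library with at least 5 RPKM in every other library of its group, and 3 of the 5 genes described here were among them. *cpc-1* was at 67.2 to 78.9 RPKM in the transgene strain, at 2.03 to 5.11 RPKM in *cpc-1Δ* and at 418 to 1167 RPKM in WT. Of 5 markers of conidia and conidiation, the summed level was 772 to 813 RPKM in the transgene strain with 3-AT, 58.1 to 126 in *cpc-1Δ* with 3-AT and 2310 to 2359 in WT with 3-AT. It was 98.1 to 101 in *cpc-1Δ* and 426 to 428 in WT in 0.1% glucose medium, and 159 to 179 in *cpc-1Δ* and 46.6 to 578 in WT in 2% glucose medium. In the groups with wide ranges *eas* had an isolated 0, in 1 *cpc-1Δ* library with 3-AT and in 1 WT library in 2% glucose medium, and these gave the low ends of 58.1 and 46.6. *eas*, which encodes the hydrophobin that coats conidia, made up most of the sum with 3-AT in the transgene strain and in WT. Without it the other 4 markers summed to 83.4 to 93.8 RPKM in the transgene strain, 58.1 to 59.7 in *cpc-1Δ* and 37.5 to 38.7 in WT with 3-AT, to 80.5 to 82.2 in *cpc-1Δ* and 369.5 to 375 in WT in 0.1% glucose medium, and to 140.03 to 160.3 in *cpc-1Δ* and 45.1 to 46.6 in WT in 2% glucose medium. With 3-AT, *cpc-1Δ* was thus below WT in the sum with *eas* and above it in the sum without. *con-6* was listed at 0 in all 2% glucose groups and averaged 6.35 RPKM in *cpc-1Δ* and 65.0 RPKM in WT in 0.1% glucose medium. The part of conidial RNA in the results was not tested.

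**Figure D1:**
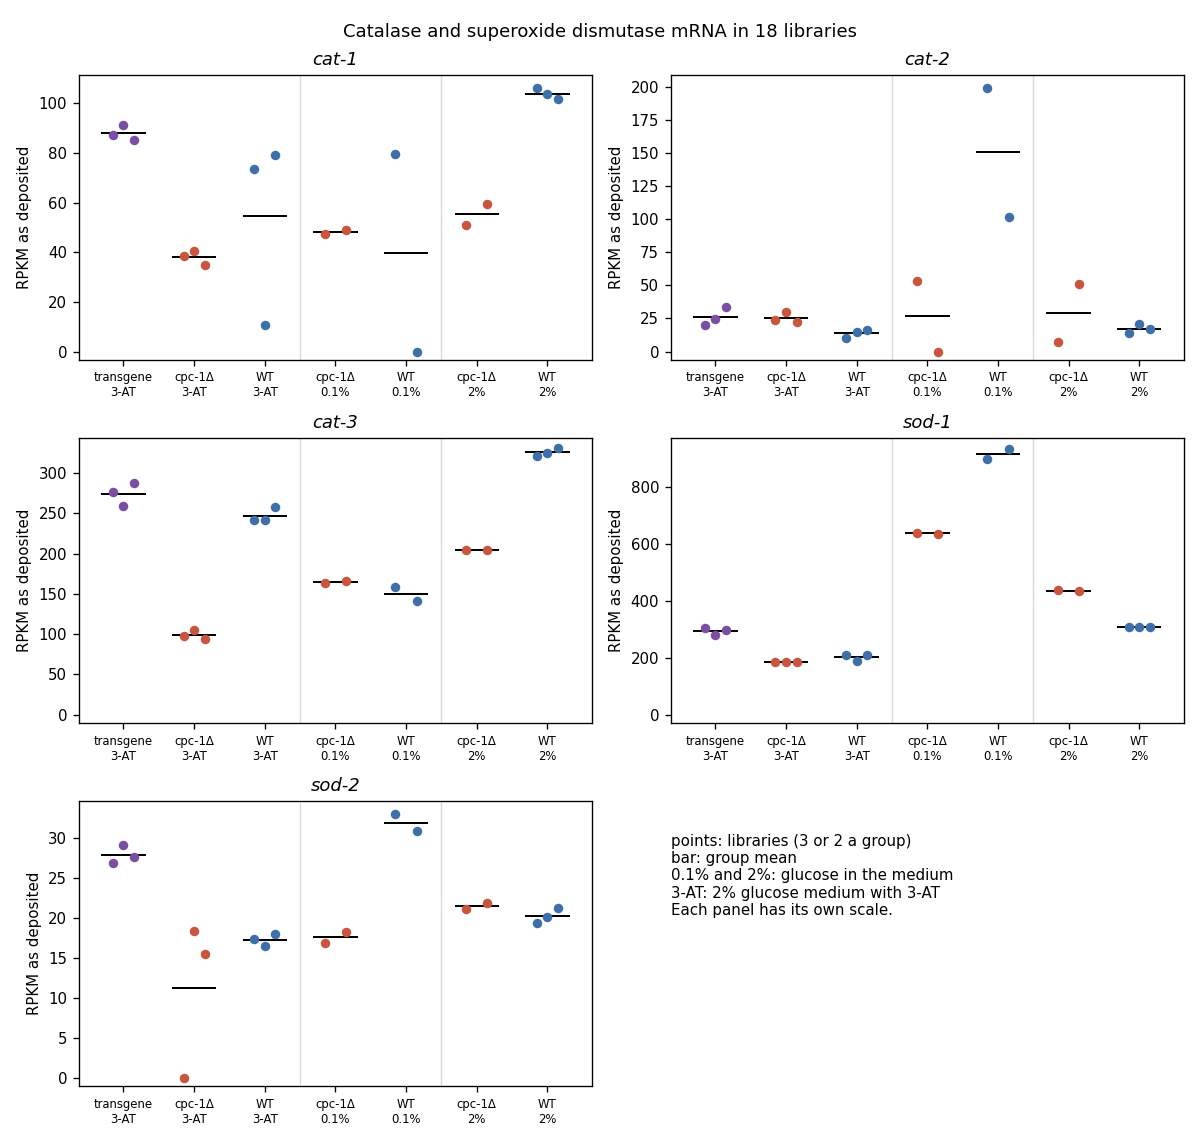
RPKM of the 5 genes (vertical axes, each with its own scale) in the 18 libraries (points) of 7 groups, with group means as bars. *cat-3* is lowest in *cpc-1Δ* with 3-AT (93.6 to 105 RPKM) and *sod-1* is highest in WT in 0.1% glucose medium (897 and 934 RPKM), while *cat-1*, *cat-2* and *sod-2* each have 1 library at 0.

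*sod-1* and *cat-3* had the highest means of the set in every group but WT in 0.1% glucose medium, where the mean of *cat-2* was 150.8 RPKM and that of *cat-3* 149.8 RPKM. Among genes above 0, the mean of *sod-1* stood at the 96.9th percentile or higher in every group and that of *cat-3* at the 92.0th or higher. For WT in 2% glucose medium, treated or not, the order of means was *cat-3*, *sod-1*, *cat-1*, *sod-2*, *cat-2*, and in the other 5 groups *sod-1* came first. *cat-3* made up between 36.2% and 90.4% of the summed RPKM of the 3 catalases in a library. Both ends of this range lie in WT libraries, the low end in 0.1% glucose medium, where *cat-2* was high, and the high end in the library with 3-AT in which *cat-1* was low.

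*cat-3* had close replicates, and in the cultures with 2% glucose its level differed between strains. With 3-AT it had 276, 259.5 and 287 RPKM in the transgene strain, 97.7, 105 and 93.6 RPKM in *cpc-1Δ* and 242, 242 and 258 RPKM in WT. No *cpc-1Δ* library came near the other strains, and the *cpc-1Δ* mean of 98.8 ± 5.86 RPKM was 40.0% of the WT mean of 247 ± 9.64 RPKM (SD, *n* = 3 each). *cpc-1Δ* over WT gave a log2 fold change of −1.31 (SE 0.066, adjusted *P* = 1.25e-06, limma with Benjamini-Hochberg adjustment over all genes), where the median of the genes at 10 RPKM or more was 0.48. It lay at the 5.36th percentile of the fold changes of all 8688 genes tested. In the transgene strain *cat-3* was 2.78 times as high as in *cpc-1Δ*, at 274 ± 14.0 RPKM (SD, *n* = 3). That log2 fold change was 1.46 (SE 0.066, adjusted *P* = 2.28e-06), at the 96.5th percentile, with a median of 0.23. The sign of both differences was the same under the 10 other settings and with each library left out, and both passed the threshold every time. These 2 comparisons share the *cpc-1Δ* libraries.

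Between the transgene strain and WT, the direction for *cat-3* depended on the scale. Its log2 fold change was 0.15 (SE 0.066, adjusted *P* = 0.0829) as deposited, with every transgene library above every WT library. The median of the genes at 10 RPKM or more was 0.72, and after median-ratio scaling *cat-3* was lower in the transgene strain, at −0.62 (adjusted *P* = 3.44e-05).

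Without 3-AT, the strain difference of *cat-3* was seen in 2% glucose medium and not in 0.1% glucose medium. *cat-3* in 2% glucose medium had 205 and 205 RPKM in *cpc-1Δ*, against 321, 324 and 332 RPKM in WT. The groups were far apart and the mean in *cpc-1Δ* was 62.9% of that in WT. This was a log2 fold change of −0.67 (SE 0.065, adjusted *P* = 6.83e-06) as deposited and −1.22 (adjusted *P* = 1.79e-08) after scaling, which widened the difference because most genes were listed higher in *cpc-1Δ* (median, 0.54). The values in 0.1% glucose medium were 163 and 166 RPKM in *cpc-1Δ*, against 158 and 141 RPKM in WT. The *cpc-1Δ* libraries lay just above those of WT, and the log2 fold change of 0.14 (SE 0.071, adjusted *P* = 0.136) did not pass the threshold. It passed after upper-quartile scaling, at 0.27 (adjusted *P* = 0.00167). Without WT replicate 1 of that medium it was 0.22, in a fit that left that group with 1 library.

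**Figure D2:**
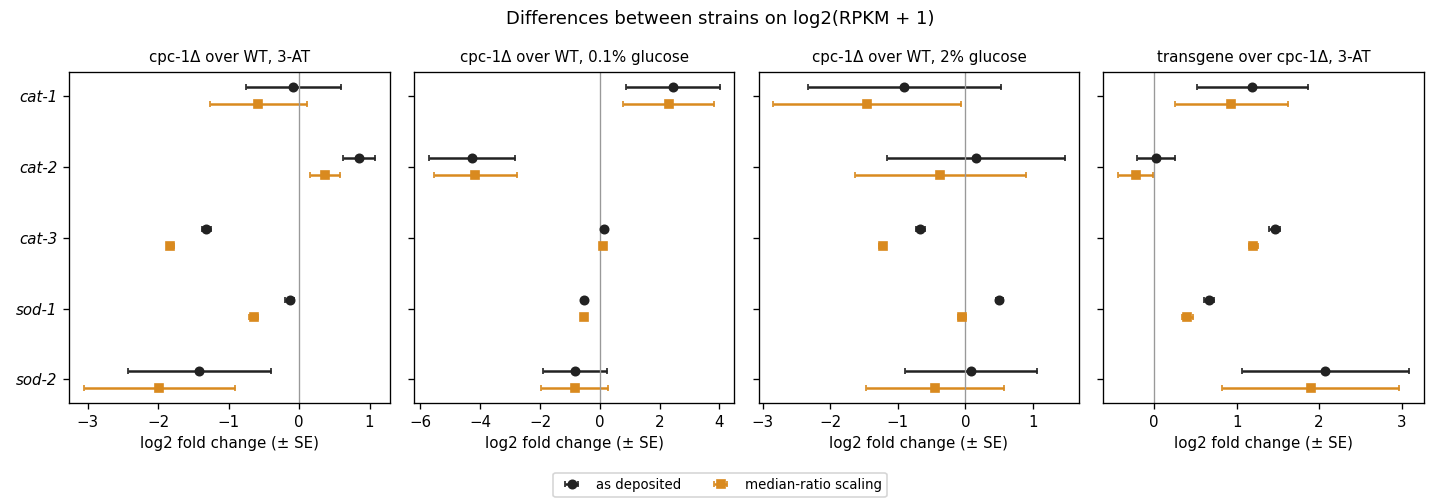
Log2 fold changes (horizontal axes, log2(RPKM + 1) scale, ± SE) between strains for the 5 genes, as deposited (circles) and after median-ratio scaling (squares). *cat-3* is lower in *cpc-1Δ* with 3-AT (−1.31) and in 2% glucose medium (−0.67) on both scales, whereas *sod-1* in 2% glucose medium lies at 0.50 as deposited and at −0.055 after scaling, and the wide bars of *cat-1*, *cat-2* and *sod-2* come with an isolated 0 or a very low library.

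The culture conditions lowered *cat-3* unequally in the 2 strains. With 3-AT the log2 fold change was −1.05 (SE 0.065, adjusted *P* = 3.79e-07) in *cpc-1Δ*, with a mean at 48.2% of that without 3-AT. It was −0.40 (SE 0.058, adjusted *P* = 0.000194) in WT, at 75.9%. Medians of all genes at 10 RPKM or more were −0.49 in *cpc-1Δ* and −0.37 in WT, so that the fall in WT was close to that of the typical gene, and scaling turned it to 0.046 (adjusted *P* = 0.496). The fall in *cpc-1Δ* became −0.56 after scaling and passed the threshold (adjusted *P* = 1.76e-05). The difference between the strains in the effect of 3-AT was itself tested, and it was −0.65 (SE 0.087, adjusted *P* = 0.000188), or −0.60 after scaling.

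*cat-3* in 0.1% glucose medium fell more in WT than in *cpc-1Δ*. Against 2% glucose medium, the log2 fold change was −0.31 (SE 0.071, adjusted *P* = 0.00723) in *cpc-1Δ* and −1.12 (SE 0.065, adjusted *P* = 6.74e-08) in WT. In WT the median gene lay at 0.57, and the fall of *cat-3* was −1.66 after scaling. In *cpc-1Δ* the fall missed the threshold when only the groups compared were fitted (adjusted *P* = 0.0547). The interaction of strain and medium was 0.80 (SE 0.096, adjusted *P* = 4.09e-05), and 1.34 after scaling. Across all 7 groups, *cat-3* ran in the order WT in 2% glucose medium, the transgene strain with 3-AT, WT with 3-AT, *cpc-1Δ* in 2% glucose medium, *cpc-1Δ* and then WT in 0.1% glucose medium, and last the treated *cpc-1Δ*, and no neighbors in this order overlapped, although the transgene strain and WT with 3-AT were 1.17 RPKM apart at their nearest libraries.

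*cat-1*, which encodes the catalase abundant in conidia, was 3rd in order of level in most groups. With 3-AT it had 87.2, 91.1 and 85.3 RPKM in the transgene strain, 38.4, 40.5 and 35.0 RPKM in *cpc-1Δ* and 73.6, 10.6 and 79.1 RPKM in WT. Replicate 2 of WT was far below the other WT libraries and below all *cpc-1Δ* libraries. This library decides the comparison, since the log2 fold change of *cpc-1Δ* over WT was −0.08 (SE 0.67, adjusted *P* = 0.940) with it and −0.99 (SE 0.079, adjusted *P* = 5.72e-05) without it. All transgene libraries were above all *cpc-1Δ* libraries, with means of 87.9 ± 2.94 and 38.0 ± 2.77 RPKM (SD, *n* = 3 each). Because the fit shares 1 spread among the strains, that difference of 1.19 had an SE of 0.67 and did not pass the threshold (adjusted *P* = 0.225), and it passed when only these 2 groups were fitted (adjusted *P* = 0.000178).

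Without 3-AT, *cat-1* in 2% glucose medium had 51.1 and 59.3 RPKM in *cpc-1Δ*, against 106, 104 and 102 RPKM in WT. The groups were apart, with a *cpc-1Δ* mean at 53.2% of that of WT. A log2 fold change of −0.90 did not pass the threshold in the fit of 15 libraries (SE 1.43, adjusted *P* = 0.639) and passed when only the 5 libraries of these groups were fitted (adjusted *P* = 0.00117). With 0.1% glucose it had 47.3 and 48.8 RPKM in *cpc-1Δ*, against 79.8 and 0 RPKM in WT. The 0 in WT is isolated, so no strain difference can be read from this medium. With that library taken as missing, the log2 fold change of 0.1% over 2% glucose medium in WT was −0.38 (adjusted *P* = 0.733), in place of −3.54 (adjusted *P* = 0.0534).

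*cat-2*, the catalase-peroxidase gene, varied widely between replicates. With 3-AT it had 20.4, 24.2 and 33.5 RPKM in the transgene strain, 23.7, 29.7 and 22.2 RPKM in *cpc-1Δ* and 9.94, 15.1 and 16.1 RPKM in WT. Both strains that lack the endogenous *cpc-1* were above WT in every library. Over WT, the log2 fold change was 0.88 in the transgene strain (SE 0.23, adjusted *P* = 0.0106) and 0.85 in *cpc-1Δ* (SE 0.23, adjusted *P* = 0.0128), and the 2 comparisons share the WT libraries. Neither passed after median-ratio scaling, at 0.14 (adjusted *P* = 0.619) and 0.37 (adjusted *P* = 0.189), nor when all 18 libraries were fitted together.

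*cat-2* in 0.1% glucose medium had 53.1 and 0 RPKM in *cpc-1Δ*, against 199 and 102 RPKM in WT. With 2% glucose it had 6.88 and 50.8 RPKM in *cpc-1Δ*, against 13.9, 20.9 and 17.4 RPKM in WT. Its WT level in 0.1% glucose medium was thus 8.67 times that in 2% glucose medium, with no overlap, although the replicates themselves differed widely. That log2 fold change was 2.98 (SE 1.31, adjusted *P* = 0.0732) and passed with isolated zeros taken as missing (adjusted *P* = 0.00224). The difference of *cpc-1Δ* from WT in 0.1% glucose medium was −4.29 (SE 1.44, adjusted *P* = 0.0292), a value that rests on the library at 0. Without it the difference was −1.41 (adjusted *P* = 0.204 with isolated zeros taken as missing).

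*sod-1*, which encodes the copper-zinc superoxide dismutase, had close replicates and was highest in 0.1% glucose medium. In 0.1% glucose medium it had 639 and 636 RPKM in *cpc-1Δ*, against 897 and 934 RPKM in WT. With 2% glucose it had 439 and 433 RPKM in *cpc-1Δ*, against 307, 307 and 308 RPKM in WT. The low-glucose libraries were above those in 2% glucose medium in both strains, by 1.46 times in *cpc-1Δ* and 2.98 times in WT. On the log2 scale the rise was 0.55 (SE 0.057, adjusted *P* = 3.93e-05) in *cpc-1Δ*, where the median gene was at 0.02. It was 1.57 (SE 0.052, adjusted *P* = 7.59e-10) in WT, where the median gene was at 0.57, and 1.03 after scaling. The interaction was −1.02 (SE 0.077, adjusted *P* = 1.14e-06), and −0.49 after scaling (adjusted *P* = 0.000845), so that the rise in *cpc-1Δ* was smaller on both scales.

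**Figure D3:**
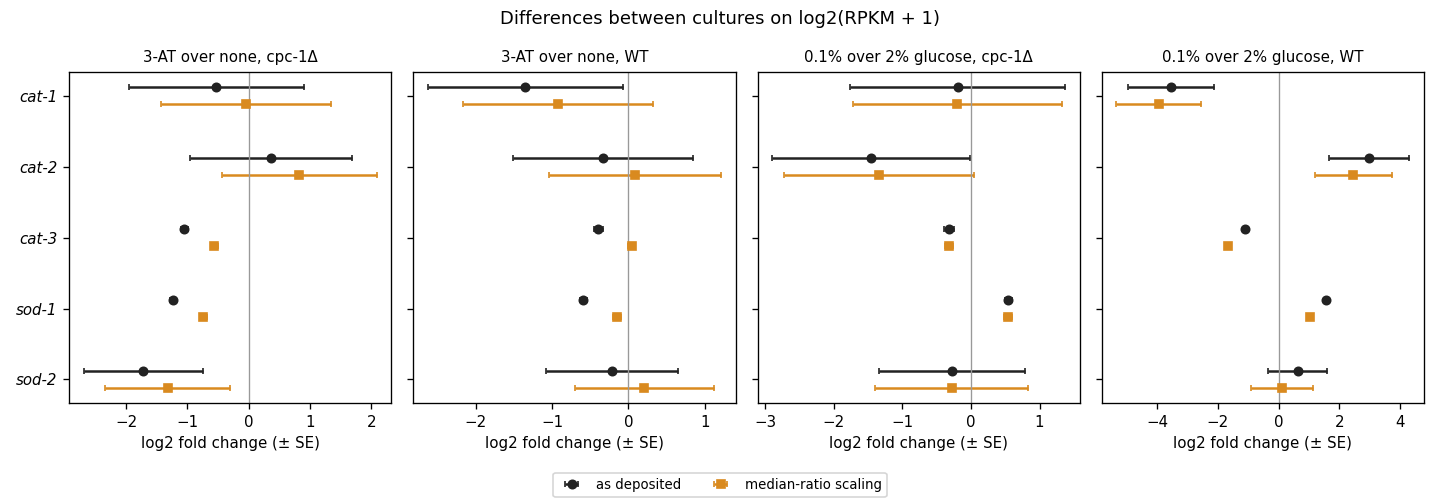
Log2 fold changes (horizontal axes, log2(RPKM + 1) scale, ± SE) of the 5 genes between cultures in *cpc-1Δ* and in WT, as deposited (circles) and after median-ratio scaling (squares). In 0.1% over 2% glucose medium *sod-1* is higher in both strains (0.55 in *cpc-1Δ* and 1.57 in WT) and *cat-3* is lower (−0.31 and −1.12).

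The strain difference of *sod-1* was opposite in the 2 media as deposited. *sod-1* in 0.1% glucose medium was lower in *cpc-1Δ*, with a log2 fold change of −0.52 (SE 0.057, adjusted *P* = 1.60e-05), and this was −0.54 after scaling. In 2% glucose medium it was higher in *cpc-1Δ*, at 0.50 (SE 0.052, adjusted *P* = 1.02e-05). There the median gene was at 0.54, *sod-1* lay at the 54.4th percentile of all fold changes, and scaling brought it to −0.055 (adjusted *P* = 0.505). The lower level in 0.1% glucose medium therefore did not depend on the scale, whereas the higher level in 2% glucose medium did.

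With 3-AT, *sod-1* had 303, 280.5 and 299 RPKM in the transgene strain, 184, 187 and 184 RPKM in *cpc-1Δ* and 211, 189.9 and 209 RPKM in WT. All transgene libraries were above the others, and the *cpc-1Δ* libraries lay just below those of WT. *cpc-1Δ* over WT gave a log2 fold change of −0.13 (SE 0.059, adjusted *P* = 0.0836) as deposited and −0.65 after scaling (adjusted *P* = 7.78e-05). The transgene strain was above *cpc-1Δ* by 0.67 (SE 0.059, adjusted *P* = 9.26e-05), or 0.40 after scaling (adjusted *P* = 0.00283). It was above WT by 0.53 as deposited (adjusted *P* = 9.08e-05), but below it, at −0.24, after scaling (adjusted *P* = 0.0155).

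Compared with 2% glucose medium alone, 3-AT lowered *sod-1* in both strains. The log2 fold change was −1.23 (SE 0.052, adjusted *P* = 2.86e-08) in *cpc-1Δ*, with a mean at 42.5% of that without 3-AT, and −0.74 after scaling. It was −0.59 (SE 0.046, adjusted *P* = 1.67e-06) in WT, at 66.2%, and −0.15 after scaling (adjusted *P* = 0.0383). The interaction was −0.64 (SE 0.069, adjusted *P* = 4.16e-05), and −0.59 after scaling.

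*sod-2*, which encodes the mitochondrial manganese enzyme, was at 15.5 to 32.9 RPKM apart from 1 library at 0. With 3-AT it had 26.9, 29.1 and 27.7 RPKM in the transgene strain, 0, 18.4 and 15.5 RPKM in *cpc-1Δ* and 17.4, 16.5 and 17.9 RPKM in WT. With 0.1% glucose it had 16.9 and 18.2 RPKM in *cpc-1Δ*, against 32.9 and 30.8 RPKM in WT. With 2% glucose it had 21.1 and 21.8 RPKM in *cpc-1Δ*, against 19.4, 20.1 and 21.2 RPKM in WT. As deposited, the transgene strain stood above both other strains with 3-AT, although its log2 fold change over WT of 0.66 was −0.083 after median-ratio scaling. WT stood above *cpc-1Δ* in 0.1% glucose medium. The isolated 0 widens the SE of *sod-2* to between 0.87 and 1.44, and in the limma fits with it *sod-2* passed the threshold in 0 of the 11 comparisons and had an unadjusted *P* under 0.05 in 0 of them.

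With isolated zeros taken as missing, a choice made after the data were seen, several differences of *sod-2* passed. The log2 fold change of the transgene strain over *cpc-1Δ* was then 0.69 (adjusted *P* = 0.000964). That of *cpc-1Δ* over WT was −0.83 in 0.1% glucose medium (SE 0.086, adjusted *P* = 1.81e-05), against −0.03 (adjusted *P* = 0.793) with 3-AT. In WT, 3-AT gave −0.21 (SE 0.070, adjusted *P* = 0.0292), where the median gene was at −0.37, and with zeros kept this difference turned to 0.21 after median-ratio scaling. In WT, 0.1% glucose medium gave 0.63 (adjusted *P* = 5.02e-05), a difference that, with zeros kept, was 0.11 after median-ratio scaling and −0.0039 after upper-quartile scaling.

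The ratio of *cat-3* to *sod-1* within a library does not depend on the scale of that library. With 3-AT the ratio was 0.933 ± 0.0251 in the transgene strain, 0.534 ± 0.0279 in *cpc-1Δ* and 1.22 ± 0.0659 in WT (SD, *n* = 3 each). In 0.1% glucose medium it was 0.258 ± 0.00404 in *cpc-1Δ* and 0.164 ± 0.0179 in WT (SD, *n* = 2 each). In 2% glucose medium it was 0.470 ± 0.00457 in *cpc-1Δ* (SD, *n* = 2) and 1.06 ± 0.0151 in WT (SD, *n* = 3). The ratio was thus lower in *cpc-1Δ* than in WT in both cultures with 2% glucose, and higher in 0.1% glucose medium. In the transgene strain it lay between *cpc-1Δ* and WT, with no overlap. These ratios are a description, and no test was made on them.

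**Figure D4:**
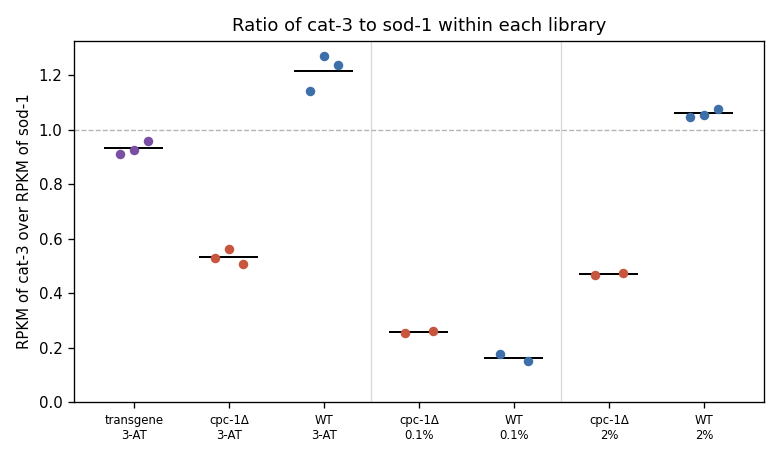
Ratio of the RPKM of *cat-3* to that of *sod-1* (vertical axis, from 0) in each of the 18 libraries (points) with group means (bars). Of the 18 libraries, only those of WT in 2% glucose medium, treated or not, lie above 1 (dashed line), and both strains in 0.1% glucose medium lie at or below 0.261.

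Each of the 11 comparisons called 2 of these 5 genes, and the share called among all genes, given as background, was between 28.2% and 62.8%. For *cpc-1Δ* over WT with 3-AT, 1 rose and 1 fell, where 60.9% of 8688 genes were called, 45.5% higher and 15.5% lower. For *cpc-1Δ* over WT in 0.1% glucose medium, 2 fell, where 49.2% of 9013 genes were called, 22.3% higher and 26.9% lower. In 2% glucose medium 1 rose and 1 fell, against 54.5% of genes called, 47.1% higher and 7.37% lower. The transgene strain had 2 higher than *cpc-1Δ* (background 33.9%, with 29.4% higher and 4.51% lower) and 2 higher than WT (background 62.8%, with 54.3% higher and 8.47% lower). Treatment with 3-AT lowered 2 in *cpc-1Δ* (background 48.1%, with 4.28% higher and 43.8% lower) and 2 in WT (background 44.3%, with 10.1% higher and 34.2% lower). In 0.1% over 2% glucose medium, 1 was higher and 1 lower in *cpc-1Δ* (background 28.2%, with 13.3% higher and 14.9% lower) and likewise in WT (background 59.3%, with 45% higher and 14.3% lower). The interaction with 3-AT had 2 lower (background 35.1%, with 12.2% higher and 22.8% lower), and that with glucose had 1 higher and 1 lower (background 50.7%, with 9.96% higher and 40.8% lower). The count of 2 in 5 is a share within the range of the backgrounds, so nothing is read from it about the genes as a set.

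The genes whose levels ran most like each member were found by Pearson's r over the 18 libraries among 4592 genes, on scaled log2 values, as a description. For *cat-3* they were NCU11338 (*r* = 0.980), NCU09209 (*r* = 0.970) and NCU02772 (*r* = 0.969). For *sod-1* they were *rpn-9* (*r* = 0.973), NCU00904 (*r* = 0.972) and *nuo78* (*r* = 0.969), and for *cat-1* NCU00171 (*r* = 0.911), NCU00579 (*r* = 0.903) and *gh18-7* (*r* = 0.901). For *cat-2* they were NCU03336 (*r* = 0.872), *nuo9.8* (*r* = 0.866) and NCU07843 (*r* = 0.825), and for *sod-2* NCU03387 (*r* = 0.958), NCU07994 (*r* = 0.958) and NCU00411 (*r* = 0.952). The libraries fall into 7 groups, so that these values largely follow the group means.

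A further 14 genes tied to peroxide, superoxide and redox control were followed as a list. It holds *cat-4*, another catalase gene, *cys-9*, which encodes thioredoxin reductase, *nox-1* and *nox-2*, which encode the superoxide-producing NADPH oxidases, and *nor-1*, which encodes their regulatory subunit. It also holds *os-2*, a stress-activated MAP kinase gene, and *asl-1*, which encodes a transcription factor of the ATF family, and 7 genes known here by locus tag alone. As deposited, for *cpc-1Δ* over WT, 8 were higher and 3 lower with 3-AT (median log2 fold change, 0.37), 4 higher and 6 lower in 0.1% glucose medium (median, 0.00) and 11 higher and 1 lower in 2% glucose medium (median, 0.65). Of all genes, 45.5% were higher and 15.5% lower with 3-AT, 22.3% and 26.9% in 0.1% glucose medium, and 47.1% and 7.37% in 2% glucose medium. These medians stand beside 0.48, −0.05 and 0.54 for all genes at 10 RPKM or more. After median-ratio scaling the counts were 4 higher and 6 lower with 3-AT, 4 and 6 in 0.1% glucose medium, and 7 and 2 in 2% glucose medium. With 3-AT against none, 12 were lower in *cpc-1Δ* (median, −0.78, where 43.8% of all genes were lower), and 1 was higher and 8 lower in WT (median, −0.44, where 10.1% were higher and 34.2% lower). Scaled, 1 was higher and 9 lower in *cpc-1Δ*, and 5 higher and 5 lower in WT. In 0.1% over 2% glucose medium, 6 were lower in *cpc-1Δ* (median, −0.16, where 14.9% of all genes were lower), and 8 were higher and 4 lower in WT (median, 0.32, where 45% were higher and 14.3% lower). Scaled, 1 was higher and 6 lower in *cpc-1Δ*, and 3 higher and 8 lower in WT.

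As deposited, the 2 NADPH oxidase genes differed between *cpc-1Δ* and WT in all 3 cultures. In 0.1% glucose medium both were lower in *cpc-1Δ* than in WT, *nox-1* by a log2 fold change of −0.51 (adjusted *P* = 0.000196) and *nox-2* by −0.31 (adjusted *P* = 0.00448). With 3-AT *nox-2* was lower in *cpc-1Δ* than in WT, at 35.8 ± 2.47 against 105 ± 5.55 RPKM (SD, *n* = 3 each), with a log2 fold change of −1.53 (SE 0.084, adjusted *P* = 2.13e-06). The transgene strain lay between them at 71.8 ± 6.49 RPKM and was above *cpc-1Δ* by 0.98 (adjusted *P* = 7.93e-05). *nox-2* sums 2 transcripts, and its lower level in *cpc-1Δ* in 2% glucose medium (−0.86, and −1.41 after median-ratio scaling) was −0.12 and missed the threshold with the higher transcript alone. *nox-1* was higher in *cpc-1Δ* than in WT in 2% glucose medium, at 49.2 against 15.1 RPKM (log2 fold change 1.64, and 1.10 after scaling, adjusted *P* = 1.47e-08 as deposited). With 3-AT the direction for *nox-1* depended on the scale, at 0.29 as deposited (adjusted *P* = 0.00340) and −0.20 after scaling (adjusted *P* = 0.0203). *cys-9* was higher in *cpc-1Δ* than in WT in 0.1% glucose medium, at 65.4 against 22.9 RPKM (1.48, adjusted *P* = 8.38e-08). It was also higher with 3-AT (0.83, and 0.34 after scaling) and in 2% glucose medium (0.90, and 0.35 after scaling). *os-2* fell with 3-AT in WT, to 37.5 RPKM against 72.4 RPKM without it (−0.91, and −0.48 after scaling, adjusted *P* = 0.000113 as deposited). It fell in *cpc-1Δ* as well, to 68.3 against 140 RPKM (−1.03, and −0.54 after scaling). The interaction for *os-2* was −0.12 and did not pass the threshold (adjusted *P* = 0.689).

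Among the genes known by locus tag alone, NCU03297 was higher with 3-AT than without it in WT, at 188 against 115 RPKM (0.70, adjusted *P* = 1.29e-05, and 1.15 after median-ratio scaling). With 3-AT it was lower in *cpc-1Δ* than in WT (−1.02, adjusted *P* = 1.40e-05, and −1.53 after scaling). NCU03297 sums 3 transcripts, and its interaction of strain and 3-AT turned from −1.59 to 0.64 with the transcript of the highest mean alone. NCU07386 was higher in *cpc-1Δ* than in WT in 0.1% glucose medium, at 64.1 against 11.9 RPKM (2.59, adjusted *P* = 0.000283), a difference that missed the threshold when only these groups were fitted. The WT libraries were far apart, at 4.78 and 19.1 RPKM. The difference was 1.69 without WT replicate 1 of that medium and 3.49 without replicate 2. Each of these fits left WT with 1 library there, so they cannot show whether the call is stable.

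**Figure D5:**
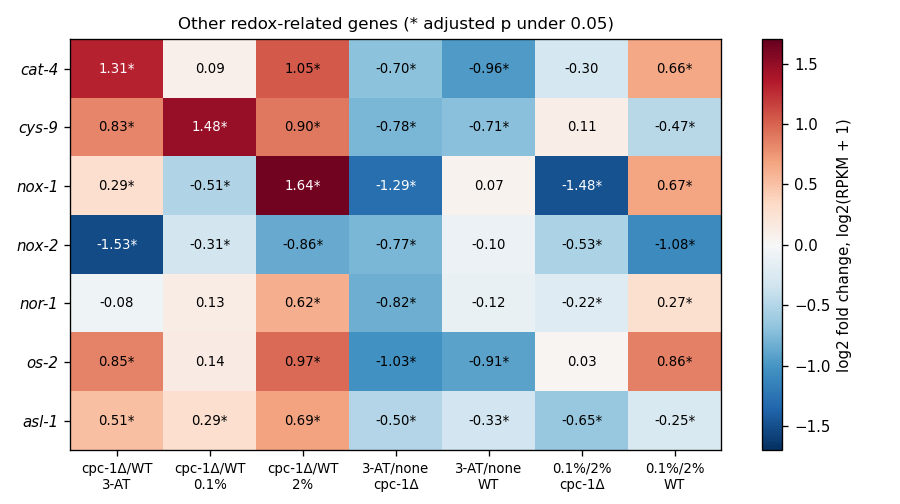
Log2 fold changes (color and printed value, log2(RPKM + 1) scale) of the 7 list genes that have a symbol, in the comparisons between strains and between cultures. As deposited, *cpc-1Δ* is lower than WT for *nox-2*, summed over 2 transcripts, in all 3 cultures (−1.53, −0.31 and −0.86). The last value, in 2% glucose medium, missed the threshold with the higher transcript alone. *nox-1* is higher in *cpc-1Δ* in 2% glucose medium (1.64).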

How the data were processed

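mRNA-seq values of 18 libraries were used. The authors deposited 1 RPKM value per annotated transcript and library, without pooling. Their notes name TopHat2 and Cufflinks, and versions, genome build and annotation are not given in the sources used here. Groups came from the labels, although the headings of the transgene libraries name GCN4WT. Of 10792 entries per library, 7 with a remark were left out, and transcripts were summed per gene. Symbols came from the RefSeq table, which matched 9729 of 9730 genes. NCU06031 was dropped from the list because its symbol disagreed. Genes with no number in a transgene library (124) did not enter comparisons with the transgene strain.

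Values were fitted as log2(RPKM + 1) by limma (version 3.58.1, R version 4.3.3) with a coefficient per group, on 15 libraries (WT and *cpc-1Δ*; 9013 genes) or on the 9 libraries with 3-AT (8688 genes). *P* values were adjusted by Benjamini-Hochberg over all genes, and 0.05 was the threshold. The fold changes understate changes of low genes. The fit was tested on simulated data. Tables and plots were made with Python 3.11.15, pandas 2.3.3 and matplotlib 3.10.9. List genes were drawn from the 2 highest or 2 lowest log2 fold changes past the threshold and averaging 10 RPKM or more. Not all of these are named, and named genes are also given in other comparisons, so they are not always the extremes. For *cpc-1Δ* over WT in 0.1% glucose medium the 2 lowest were NCU09560 (−0.93) and NCU00598 (−0.68). The highest with 3-AT was NCU03339 (1.13). The 3 genes most like each member were taken by Pearson's r. Members and lists were chosen with earlier results of these data known. Alternatives were a pseudocount of 0.1, median-ratio and upper-quartile scaling, a filter of 1 RPKM, all 18 libraries, a fit of the compared groups alone, a block for the replicate number, the transcript with the highest mean, each library left out in turn and, added after the data were seen, isolated zeros as missing and a prior variance that follows the mean.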

Additional observations from a re-analysis of the deposited data

Results flagged for a closer look

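These results were picked out because the effect of a culture condition differed between *cpc-1Δ* and WT by the test of the interaction (limma, adjusted *P* under 0.05), where 35.1% of all genes passed for 3-AT and 50.7% for 0.1% glucose medium. For 3-AT, the log2 response of *cpc-1Δ* minus that of WT was −0.65 for *cat-3*, −0.64 for *sod-1*, −1.35 for *nox-1*, −1.59 for NCU03297 and 0.58 for NCU00598. *nox-1* fell with 3-AT in *cpc-1Δ* (−1.29, and −0.81 after median-ratio scaling) and had a value of 0.07 in WT (0.49 after scaling). The value of NCU03297 sums 3 transcripts and turned to 0.64 when the transcript with the highest mean was used alone. For 0.1% glucose medium, the difference was 0.80 for *cat-3*, −1.02 for *sod-1*, −2.15 for *nox-1*, 2.20 for NCU07386, 0.58 for *cys-9* (1.10 after median-ratio scaling) and −1.72 for NCU09534, which overlaps 1 other annotated gene. In 0.1% glucose medium *nox-1* fell in *cpc-1Δ* (−1.48, and −1.47 after median-ratio scaling). In WT its log2 fold change was 0.67, where the median gene was at 0.57, and 0.16 (adjusted *P* = 0.0700) after scaling. For NCU07386 the difference was 1.31 without WT replicate 1 in 0.1% glucose medium and 3.10 without replicate 2. Each of these fits left that group with 1 library.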

How the results depend on the processing

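Of the log2 fold changes recomputed under the alternatives, 1360 kept their direction and side of the threshold, 40 newly passed, 19 no longer passed and 32 changed sign, most of them values that had not passed. The causes were not tested. With 3-AT against none in WT, median-ratio scaling gave 0.085 for *cat-2*, 0.046 for *cat-3* and 0.21 for *sod-2*, and upper-quartile scaling 0.098 for *sod-2*. In *cpc-1Δ* over WT in 2% glucose medium, median-ratio scaling gave −0.37 for *cat-2*, −0.055 for *sod-1* and −0.45 for *sod-2*, and upper-quartile scaling −0.32 for *cat-2* and −0.40 for *sod-2*. *cat-2* in the transgene strain over *cpc-1Δ* was −0.23 and −0.27 under these scalings. Over WT, *cat-3* was −0.62 and −0.54, *sod-1* −0.24 and −0.16, and *sod-2* −0.083 and −0.0020. Upper-quartile scaling gave −0.0039 for *sod-2* in 0.1% against 2% glucose medium in WT. With isolated zeros as missing, *cat-1* was −0.72 in *cpc-1Δ* over WT in 0.1% glucose medium, and *cat-2* was 1.42 in 0.1% against 2% glucose medium in *cpc-1Δ*. NCU03297 in the interaction with 3-AT was 0.64 with its highest transcript alone. Either scaling left 1 member called with 3-AT in WT and 1 in *cpc-1Δ* over WT in 2% glucose medium, and upper-quartile scaling left 1 in the transgene strain over WT. Of all genes, 3-AT in *cpc-1Δ* called 4335 as deposited, 2767 after median-ratio and 2820 after upper-quartile scaling.

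In 0.1% against 2% glucose medium in WT, 4 members were called, in place of 2, with all 18 libraries, with only the groups compared and with isolated zeros as missing. In *cpc-1Δ*, fitting only the groups compared gave 1 member and 1543 genes, in place of 2 and 2538. Scaling also moved the direction of calls. Of genes called, those higher in *cpc-1Δ* than in WT made up 74.6% with 3-AT and 86.5% in 2% glucose medium as deposited, and 47.6% and 52.1% after median-ratio scaling. The share higher in the transgene strain was 86.7% against *cpc-1Δ* and 86.5% against WT, and 50.1% and 43.8% after scaling. The share higher with 3-AT was 8.90% in *cpc-1Δ* and 22.9% in WT, and 48.8% and 61.9% after scaling. The share higher in 0.1% glucose medium in WT was 75.9%, and 51.2% after scaling, and the share higher in its interaction was 19.6%, and 45.5% after scaling. For the interaction with 3-AT it was 34.9%, and 39.8% after median-ratio and 46.3% after upper-quartile scaling.

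Leaving out each library in turn gave 2 to 4 members called for *cpc-1Δ* over WT with 3-AT (4 without WT replicate 2). In 0.1% glucose medium each such fit left a group with 1 library, so no count of calls is given there. Signs changed with single libraries left out for *cat-1* and *cat-2* only. *cat-1* ranged between −0.99 and 0.40 in *cpc-1Δ* over WT with 3-AT, −0.088 and 1.30 in the interaction with 3-AT, and −0.72 and 5.62 in *cpc-1Δ* over WT in 0.1% glucose medium. *cat-2* ranged between −0.99 and 1.72 with 3-AT in *cpc-1Δ*, −0.66 and 2.06 in that interaction, −1.21 and 1.51 in *cpc-1Δ* over WT in 2% glucose medium, −0.16 and 0.18 in the transgene strain over *cpc-1Δ*, and −4.34 and 1.42 in 0.1% against 2% glucose medium in *cpc-1Δ*. Where leaving out a library left a group with 1 library, it was assumed to vary like the others. No pairing by replicate number was seen, since of 22 same-numbered pairs 0 had a correlation of deviations over 0.1 (−0.084 to 0.087). In groups of 2 the deviations mirror each other, so this check cannot show that the samples were unpaired. With the replicate number as a block, 1 member was called in *cpc-1Δ* over WT in 0.1% glucose medium, since *cat-2* had an adjusted *P* of 0.0532. RPKM levels moved by more than the spread between replicates in 24 of 35 group means after median-ratio scaling and in 26 of 35 after upper-quartile scaling. Depth is unknown, so counting error could not be given for *cat-1*, *cat-2* and *sod-2*.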
